A study of Mus musculus with 12 samples.

Results

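These results describe the state that mouse embryonic fibroblasts (MEFs) reached on day 4 of reprogramming when the histone methyltransferase DOT1L was inhibited throughout and its partner AF10, the product of Mllt10, was intact. The members were the 2 Day4_fl_SGC and the 2 MEF_fl libraries, 4 of the 12 libraries of the series, taken by their labels and compared over all genes. The 2 Day4_fl_DMSO libraries, from cells reprogrammed in the vehicle, were set beside them. Cells of all 3 groups carried 2 floxed AF10 alleles (AF10 fl/fl), an inducible cassette (OSKM) of the reprogramming factors Pou5f1, Sox2, Klf4 and Myc, and rtTA, the doxycycline-dependent activator that switches it on. The labels give all of them 1 cell line name, Conditional AF10, and no age. They received the empty adenovirus Ad5-CMV-Empty in place of Cre, so AF10 was left undeleted. Reprogramming began after the virus with doxycycline at 2 µg/mL, and the medium held either DMSO as the vehicle or SGC0946, a small-molecule inhibitor of DOT1L, at 5 µM. While MEF_fl cells stayed in MEF medium, reprogramming took place in ESC medium, that of embryonic stem cells, which contained leukemia inhibitory factor, and the plates held gelatin and a layer of DR4 feeder MEFs. Doxycycline, medium, factor, feeders, days in culture and inhibitor therefore all changed between MEF_fl and Day4_fl_SGC, and their effects cannot be told apart. The feeders are fibroblasts too, and the part of their RNA in the day 4 values was not tested.

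Reprogramming factors turn a fibroblast into a pluripotent cell in stages. Mesenchymal genes are shut and epithelial genes switched on first, in a mesenchymal-to-epithelial transition, and the endogenous pluripotency network follows late. DOT1L places methyl groups on lysine 79 of histone H3 over the bodies of transcribed genes, AF10 helps it to reach the higher methylation states, and DOT1L inhibition is known to raise the yield of reprogrammed colonies.

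The expected counts summed to 14602536 to 18711382 per library in Day4_fl_SGC and MEF_fl and to 16834238 and 21109210 in Day4_fl_DMSO. Values are CPM, counts relative to the TMM-adjusted size of the library, unless stated, given as replicate 1 and replicate 2, and a level is compared between libraries for 1 gene at a time. A change is the log2 fold change of Day4_fl_SGC over MEF_fl from edgeR, with its standard error (SE), and a gene was called when its adjusted p was under 0.05. The labels number 2 replicates in every group and do not say where they came from. Y-linked genes were high in every replicate 1 and near 0 in every replicate 2, so the 2 replicates held cells of different sex. The p-values measure only the spread between these libraries, which holds the difference between those cells. Col1a1, Vim and Thy1, genes of fibroblasts, were read in all 6 libraries. In such bulk RNA, fewer cells of a type and less RNA per cell cannot be told apart.

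Of 13936 genes tested, 3645 (26.2%) were called higher in Day4_fl_SGC than in MEF_fl and 3634 (26.1%) lower. Past a 2-fold change as well, 1455 (10.4%) were higher and 1493 (10.7%) lower. The median change over all genes tested was 0.01. Among the largest rises of genes with at least 10 CPM were the pluripotency-associated RNA-binding protein L1td1, Pou5f1, the aldehyde dehydrogenase Aldh3a1, the adhesion molecule Ceacam1 and Ehf, an epithelial ETS factor. L1td1 went from 0.178 and 0.243 to 66.8 and 61.7, Aldh3a1 from 2.37 and 1.58 to 342 and 349 and Ceacam1 from 0.356 and 0 to 35.6 and 46. Their changes were 8.21, 7.44 and 7.77 (adjusted p = 1.89e-08, 1.69e-08 and 9.62e-06). Ehf had 1 count over both MEF_fl libraries and 553 over both Day4_fl_SGC libraries, a ratio of 605 with a 95% counting interval of 108 to 23900. The interferon-induced genes Ifit1, Isg15 and Ifit3 and the AP-1 subunit Fosb were among the largest falls.

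**Figure D1:**
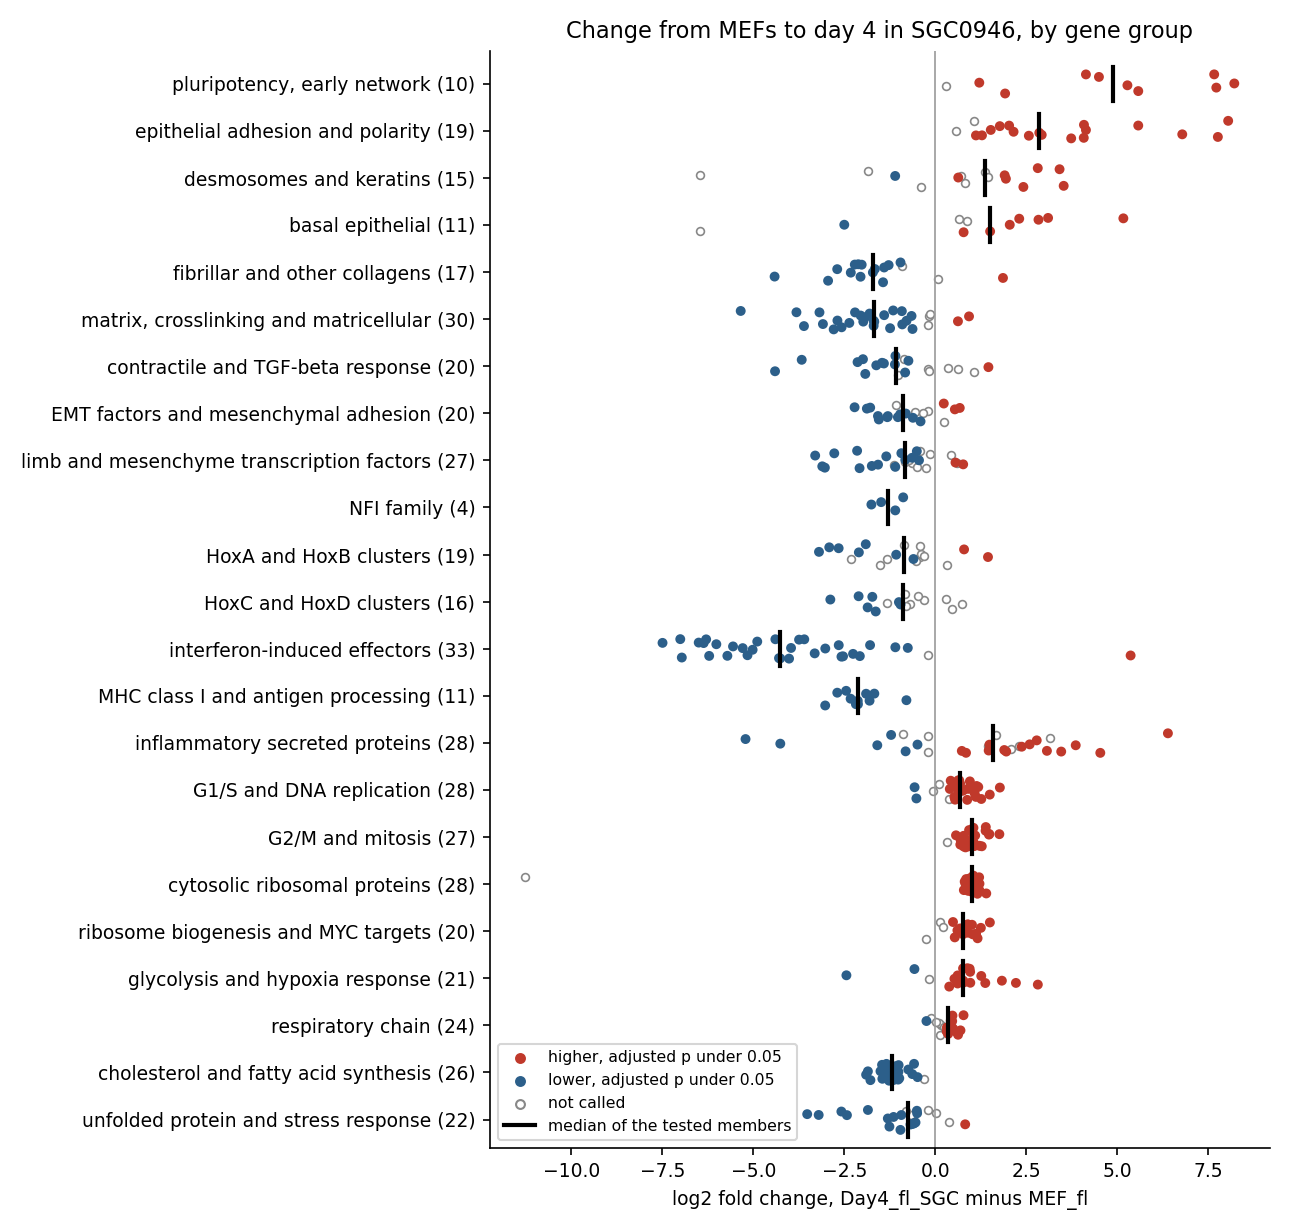
Log2 fold change of Day4_fl_SGC over MEF_fl (horizontal axis) for each tested member of 23 gene groups, with the number tested in brackets; filled points passed an adjusted p of 0.05 (red higher, blue lower), open points did not, and black bars are medians. The tested members of the early pluripotency and epithelial groups lie mostly to the right, collagens, matrix and interferon effectors to the left, and cell cycle and ribosomal proteins in narrow bands right of 0; the open point at the far left is Rps27, whose counts were erratic.

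Cdh1, or E-cadherin, the adhesion molecule of epithelial cells, and Epcam, an epithelial surface glycoprotein, rose, while Osr1, a transcription factor of limb and kidney mesenchyme, and Nfix, a nuclear factor I of mesenchymal cells, fell. Cdh1 read 1.13 and 1.46 CPM in MEF_fl, 28.8 and 18 in Day4_fl_DMSO and 65.3 and 58.1 in Day4_fl_SGC. Its change from MEF_fl was 5.57 ± 0.40 (SE, adjusted p = 1.04e-05), and each of the 3 groups stood clear of the others. Epcam read 0.237 and 0.121 in MEF_fl, 0.46 and 0.642 in Day4_fl_DMSO and 4.25 and 2.31 in Day4_fl_SGC, a change of 4.13 ± 0.49 (adjusted p = 9.96e-05) to a level that was still low. Osr1 read 95 and 132, 35.2 and 30.5 and 12.3 and 14.1 in the same order of groups. It was lower in both SGC0946 libraries than in any other, with a change of -3.10 ± 0.21 (adjusted p = 4.54e-06). Nfix followed the same order, at 252 and 279, 130.0 and 155 and 78.9 and 78.3, and its change was -1.76 ± 0.11 (adjusted p = 1.66e-06).

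**Figure D2:**
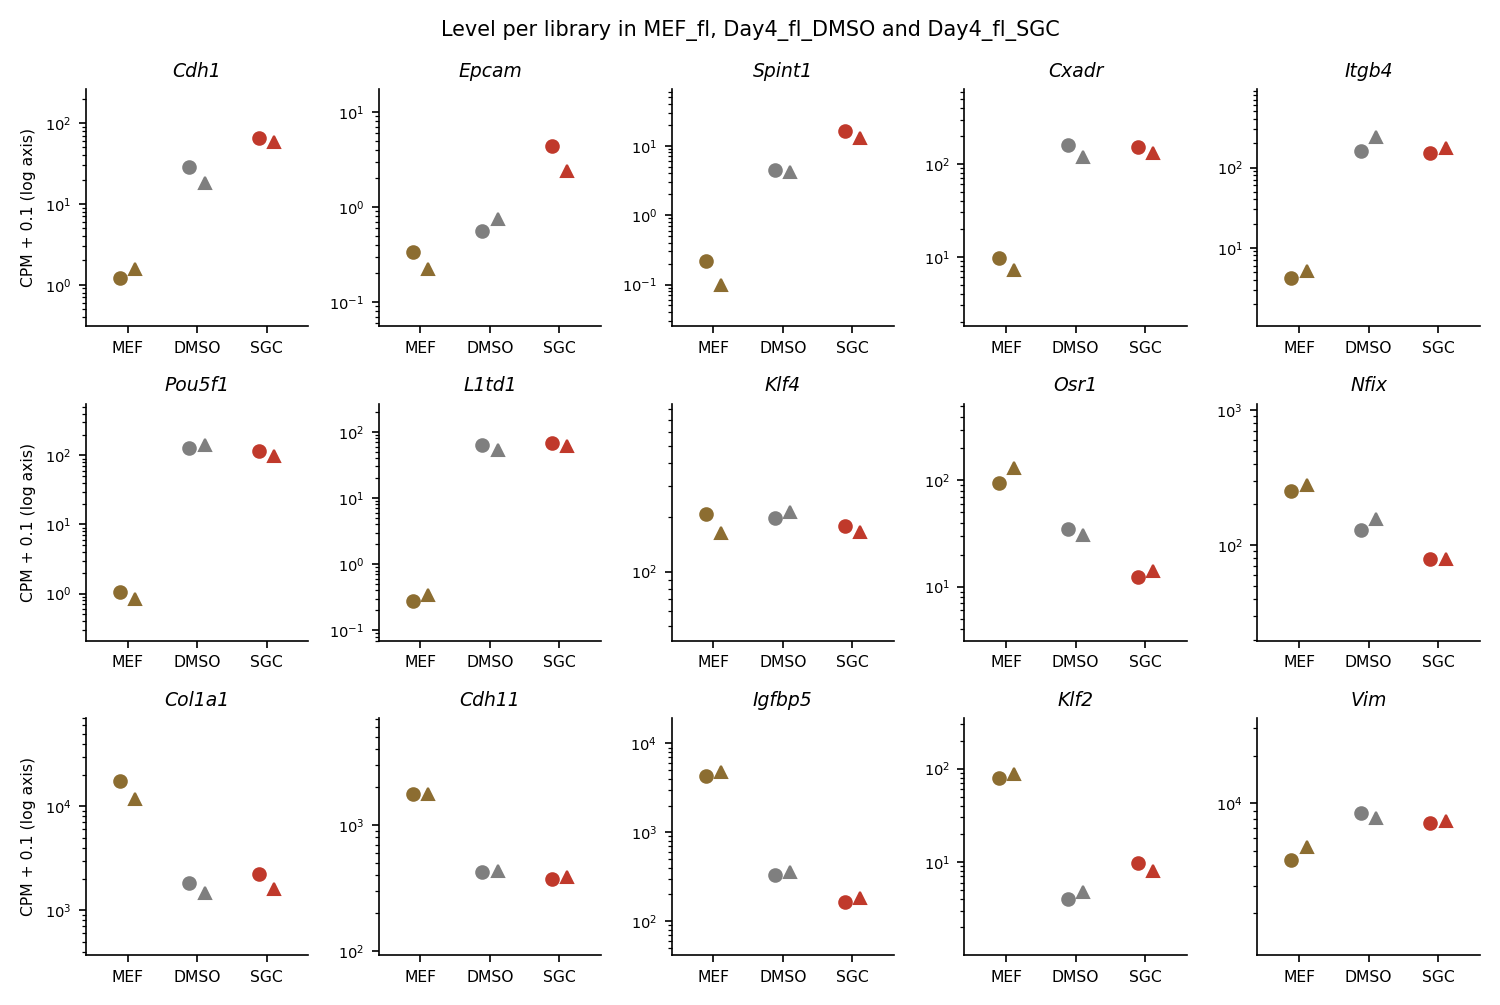
CPM + 0.1 on a log axis of 15 genes in MEF_fl, Day4_fl_DMSO and Day4_fl_SGC; circles are replicate 1 and triangles replicate 2. Cdh1, Spint1, Epcam, Osr1, Nfix and Igfbp5 form 3 separate levels, Pou5f1, L1td1, Col1a1 and Cxadr move between MEFs and day 4, and Klf4 lies within 165 to 215 CPM in all 6 libraries.

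Of the 4 reprogramming factors, 3 rose and Klf4 was not called. Pou5f1 read 0.948 and 0.728 in MEF_fl and 115 and 97 in Day4_fl_SGC, and its change was 6.97 ± 0.27 (adjusted p = 1.98e-07). Sox2 went from 8.54 and 5.58 to 94.9 and 103, a change of 3.81 ± 0.22 (adjusted p = 1.91e-06). Myc went from 18.6 and 14.1 to 282 and 278, a change of 4.09 ± 0.17 (adjusted p = 2.39e-07). Klf4, which MEFs already express, read 208 and 165 in MEF_fl and 180.0 and 167 in Day4_fl_SGC (change -0.10 ± 0.15, adjusted p = 0.587). The groups overlapped, and the change took the other sign, 0.071, without MEF_fl replicate 1. Reads from the cassette count toward these 4 genes, so their levels are those of transgene and endogenous gene together.

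Several genes of the early part of the pluripotency network rose, while most genes of the late part stayed near 0. Of 16 early genes, 15 had a row in the files and 10 were tested, of which 9 rose and none fell. In Day4_fl_DMSO against MEF_fl 9 of the 10 rose as well and none fell. The filter on low counts shaped that count: 6 of the 10 had under 10 counts in each MEF_fl library and so were tested because they were high on day 4, and genes low in every library were dropped. Fgf4, a growth factor secreted by pluripotent cells, had 1 count over both MEF_fl libraries and 238 over both Day4_fl_SGC libraries, a ratio of 260 (95% counting interval 46.3 to 10300). Tdh, the threonine dehydrogenase of embryonic stem cells, had 2 and 413 counts, a ratio of 226 (62.2 to 1870). Lin28a, an RNA-binding protein of pluripotent cells, had no count in any of the 6 libraries. Of 18 late genes only 6 had enough counts to be tested, 1 rose and 2 fell. The falls were Klf2, which makes up most of the summed level of the list in MEF_fl, from 79.7 and 87 to 9.55 and 7.91 (change -3.25, adjusted p = 2.8e-07), and Tbx3, a T-box factor also active in limb mesenchyme (change -1.39, adjusted p = 0.000921). That summed level, in CPM without the TMM factors, was 103 and 103 in MEF_fl and 41.3 and 30.6 in Day4_fl_SGC. No rise was called in this list without Day4_fl_SGC replicate 1 or either MEF_fl replicate. The untested ones include Esrrb, Zfp42, Dppa3, Dppa5a, Prdm14, Utf1 and Nr5a2, and none of these exceeded 9 counts in any of the 6 libraries; they and Lin28a were chosen for naming after their values were seen.

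The epithelial side of the transition went well beyond Cdh1. Of 30 genes of epithelial adhesion and polarity, 19 were tested, 17 rose, all 17 of them by over 2-fold, and none fell. Of the 19, 9 had under 10 counts in each MEF_fl library and were tested because they were higher in other libraries, and the 11 genes not tested were low throughout. Cxadr, a tight junction adhesion molecule, went from 9.66 and 7.04 to 153 and 129, a change of 4.08 ± 0.26 (adjusted p = 4.66e-06). In Day4_fl_DMSO Cxadr read 159 and 119, a range that overlaps that of Day4_fl_SGC. F11r, a junctional adhesion molecule, rose by 1.52 (adjusted p = 0.00225). Spint1 and Spint2 encode inhibitors of the serine proteases of epithelial surfaces. Spint1 had 2 counts over both MEF_fl libraries and 443 over both Day4_fl_SGC libraries, a ratio of 242 (95% counting interval 66.7 to 2010). Spint2 read 4.27 and 4.73 in MEF_fl, 13.7 and 10.5 in Day4_fl_DMSO and 27.2 and 26.2 in Day4_fl_SGC, with a change of 2.57 ± 0.19 (adjusted p = 5.28e-06). Not every gene of the program was read: Grhl2 and Esrp1, a transcription factor and a splicing regulator of mature epithelia, and the claudin Cldn6 had at most 2 counts in each of the 6 libraries. Those 3 genes were chosen after their values were seen.

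Genes of desmosomes and keratins moved less evenly. Of 17 such genes 15 were tested, 7 rose and 1 fell, and the median change was 1.36. The fall was not called without Day4_fl_SGC replicate 2, and 3 fell with a replicate block. In Day4_fl_DMSO the same genes had a median change from MEF_fl of 0.04. The desmosomal proteins Dsp, Dsc2 and Pkp1 rose by 2.81, 3.41 and 3.52 (adjusted p = 0.000822, 0.000131 and 9.95e-05). Krt18, a keratin of simple epithelia, read 1.07 and 0.667 in MEF_fl, 0.574 and 0.779 in Day4_fl_DMSO and 3.73 and 2.97 in Day4_fl_SGC. It was higher in Day4_fl_SGC than in both other groups, with a change from MEF_fl of 1.94 ± 0.37 (adjusted p = 0.00165). Of 12 genes of basal epithelium 11 were tested, 7 rose, 1 fell, and the median change was 1.5. That fall was called only without MEF_fl replicate 2 among the 4 fits that left out a library, and 2 fell with the block. Trp63, the transcription factor of stratified epithelia, went from 3.56 and 7.16 to 40.9 and 50.7, a change of 3.10 ± 0.27 (adjusted p = 2.29e-05). Itgb4, the integrin of hemidesmosomes, went from 4.09 and 5.04 to 153 and 174, a change of 5.16 ± 0.31 (adjusted p = 3.87e-06). Krt14, the keratin of basal cells, did not follow: it had 21 counts over both MEF_fl libraries and none in Day4_fl_SGC, at least 6.4-fold lower against a floor of 3 counts over the group, and was not called.

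The fibroblast matrix fell. Of 18 collagen genes 17 were tested, 14 fell and 1 rose, with a median change of -1.72. Col1a1, the main chain of type I collagen, read 17604 and 11779 in MEF_fl and 2221 and 1594 in Day4_fl_SGC, a change of -2.94 ± 0.25 (adjusted p = 1.41e-05). Its partner chain Col1a2 changed by -2.02 and the type III chain Col3a1 by -2.21 (adjusted p = 7.21e-05 and 2.12e-05). The exception was Col15a1, a collagen of basement membrane zones, which went from 43.5 and 31.4 to 163 and 108 (change 1.86, adjusted p = 0.00119). By share of TPM, a length-corrected measure that has the same sum in every library, the collagens took 2.77 and 2.01 percent of the 2 MEF_fl libraries and 0.55 and 0.461 percent of Day4_fl_SGC. In Day4_fl_DMSO they took 0.537 and 0.5 percent, which overlaps the share in the inhibitor.

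Of 30 further matrix genes 25 fell and 2 rose, with a median change of -1.69. In Day4_fl_DMSO against MEF_fl 25 fell and 2 rose as well, with a median of -1.73. Their TPM share went from 3.39 and 2.6 percent in MEF_fl to 0.881 and 0.868 percent in Day4_fl_SGC. Lox, the enzyme that crosslinks collagen and elastin, fell from 3747 and 3605 to 755 and 675, a change of -2.36 ± 0.12 (adjusted p = 5.95e-07). Sparc, a collagen-binding matricellular protein, changed by -1.93 and Fn1, fibronectin, by -0.79 (adjusted p = 2.26e-06 and 0.00246). Fmod, the proteoglycan fibromodulin, and Loxl3, another lysyl oxidase, were the 2 that rose, by 0.92 and 0.62 (adjusted p = 3.32e-05 and 0.000484). Igfbp5, a secreted binding protein of insulin-like growth factors, read 4288 and 4831 in MEF_fl, 335 and 356 in Day4_fl_DMSO and 165 and 184 in Day4_fl_SGC, a change of -4.71 ± 0.16 (adjusted p = 7.71e-08).

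**Figure D3:**
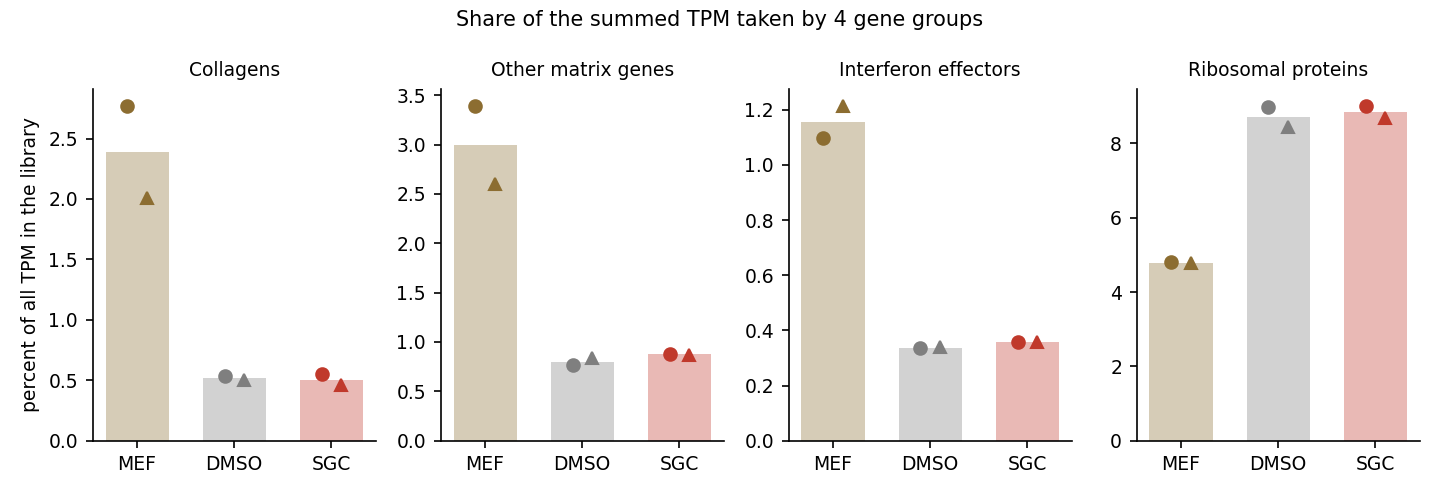
Percent of all TPM in a library taken by collagens, other matrix genes, interferon effectors and ribosomal proteins, by group; points are the 2 libraries (circle replicate 1, triangle replicate 2) and bars their mean. The first 3 shares are lower and the ribosomal share higher on day 4 in both media than in MEFs.

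Contractile and mesenchymal adhesion genes fell in part. Among 20 genes of the contractile apparatus and the response to TGF-beta 12 fell and 1 rose, with a median of -1.07; without MEF_fl replicate 1, 2 rose. In Day4_fl_DMSO against MEF_fl 14 of these genes fell and 1 rose, with a median of -1.30. Cnn1, calponin, went from 22.6 and 17.6 in MEF_fl to 1.57 and 1.58 in Day4_fl_SGC (change -3.67 ± 0.37, adjusted p = 3.96e-05). The secreted protein Tgfbi rose by 1.46 (adjusted p = 2.62e-05). In Day4_fl_DMSO against MEF_fl 11 of 20 genes of mesenchymal adhesion and its transcription factors fell and 3 rose, with a median of -1.02. In Day4_fl_SGC against MEF_fl 12 of them fell and 3 rose, with a median of -0.89. Without Day4_fl_SGC replicate 1 or 2 or MEF_fl replicate 2, 1 of these rises was called. Cdh11, a cadherin of mesenchymal cells, went from 1774 and 1758 to 372 and 388 (change -2.22 ± 0.09, adjusted p = 1.55e-07). The zinc finger repressors Zeb2 and Snai1, which silence Cdh1, changed by -1.55 and -1.88 (adjusted p = 5.71e-06 and 8.6e-05). Vim, the intermediate filament vimentin that marks mesenchymal cells, went the other way, from 4347 and 5272 to 7549.7 and 7761 (change 0.67 ± 0.12, adjusted p = 0.00133). Thy1, a surface glycoprotein of fibroblasts that is lost early in reprogramming, read 448 and 111 in MEF_fl and 223 and 221 in Day4_fl_SGC. The MEF_fl libraries lay on either side of both day 4 values, and Thy1 was not called (change -0.33 ± 0.66, adjusted p = 0.695). It took the other sign, 0.99, without MEF_fl replicate 1.

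Transcription factors of the limb and mesenchyme fell in good part. Of 28 such genes 27 were tested, 15 fell and 2 rose, with a median of -0.83. Among the falls, 2 genes had under 10 counts in each Day4_fl_SGC library and were tested because other libraries held more. Neither rise was called without Day4_fl_SGC replicate 2 or without MEF_fl replicate 1, and 4 rose with the block. Sox9, the master factor of cartilage, went from 35.5 and 43.1 to 4.25 and 5.34 (change -3.03 ± 0.24, adjusted p = 7.79e-06). Meox1 and Lmx1b, homeobox factors of somites and dorsal limb, changed by -2.78 and -1.74 (adjusted p = 2.11e-05 and 0.000145). Prrx1, a homeobox factor of limb bud mesenchyme, read 862 and 839.8 in MEF_fl and 561 and 549.5 in Day4_fl_SGC, a change of -0.62 ± 0.09 (adjusted p = 0.000281). All 4 nuclear factor I genes fell: beside Nfix, Nfib changed by -1.49 ± 0.12, Nfic by -1.10 ± 0.11 and Nfia by -0.88 ± 0.11 (adjusted p = 7.79e-06, 4.45e-05 and 0.000149).

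Hox genes record the position of a fibroblast along the body and limb, and more of those tested were called lower than higher. Over all genes tested 26.1% were called lower and 26.2% higher. In the HoxA and HoxB clusters 19 of 21 genes were tested, 7 fell and 2 rose. The count of falls was 4 without Day4_fl_SGC replicate 2 and 11 with a replicate block, and that of rises 1 without Day4_fl_SGC replicate 1 or MEF_fl replicate 1. In HoxC and HoxD 16 of 18 were tested, 7 fell and none rose. With the block 12 fell and 1 rose. These counts are small and moved with the setting, so they are not read as a result about Hox genes as a group. Hoxb6 went from 6.52 and 3.94 to 0.85 and 0.527 (change -2.91 ± 0.62, adjusted p = 0.00347). Hoxb9 went from 30.3 and 13.7 to 3.01 and 1.78 (change -3.19 ± 0.66, adjusted p = 0.00413). Hoxd12, a gene of the distal limb, read 8.06 and 14.8 in MEF_fl, 7.47 and 9.44 in Day4_fl_DMSO and 1.24 and 1.84 in Day4_fl_SGC (change from MEF_fl -2.88 ± 0.36, adjusted p = 0.000141). Both inhibitor libraries lay below the other 4. Hoxa9 rose, from 15.4 and 19.2 to 25.2 and 34.5 (change 0.79 ± 0.16, adjusted p = 0.00266).

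The lowest median of the 46 gene lists was that of the interferon response, through which cells that sense a virus or double-stranded RNA switch on antiviral genes. A transcription factor complex that holds STAT2 and IRF9 binds a short promoter motif, the interferon-stimulated response element. The letters GAAA, then 2 bases of any kind, then GAAA, searched on both strands with overlapping matches allowed, occurred in the promoter of 16 of 25 interferon effector genes with a promoter in the RefSeq table (64.0%). Over all genes of the table they occurred in 1079 of 27025 (3.99%), where a gene counted if any of its promoters held a match. A promoter here is 250 bases before to 50 bases after the gene start in build GRCm38.p6, which is not the build of the count tables. The sequences show the motif, in capitals, in 6 of the genes that fell, each as a stretch of 60 bases on the gene's strand; runs of overlapping matches appear as 1 block, and a match on the opposite strand reads as TTTC, 2 bases and TTTC.
Ifit1: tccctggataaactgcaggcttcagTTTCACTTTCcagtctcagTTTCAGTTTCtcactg
Ifit3: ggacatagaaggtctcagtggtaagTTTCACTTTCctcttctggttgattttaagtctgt
Isg15: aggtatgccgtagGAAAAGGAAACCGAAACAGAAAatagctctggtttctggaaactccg
Oas1a: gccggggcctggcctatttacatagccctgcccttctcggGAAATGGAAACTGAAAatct
Bst2: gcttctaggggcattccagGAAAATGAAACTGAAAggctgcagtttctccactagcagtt
Igtp: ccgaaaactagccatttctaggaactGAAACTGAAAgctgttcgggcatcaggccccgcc
These are, in the same order, chr19:34640760-34640819 (plus strand), chr19:34583348-34583407 (plus strand), chr4:156200850-156200909 (minus strand), chr5:120907526-120907585 (minus strand), chr8:71537562-71537621 (minus strand) and chr11:58199496-58199555 (plus strand). A match is a description of the letters and not evidence of binding.

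Of 34 interferon-induced effectors 33 were tested, 31 fell and 1 rose, with a median change of -4.26 beside 0.01 over all genes tested. In Day4_fl_DMSO against the same MEF_fl libraries the median was -4.31. Ifit1, which binds viral RNA and blocks its translation, read 677 and 861 in MEF_fl, 7.18 and 11.1 in Day4_fl_DMSO and 3.6 and 4.94 in Day4_fl_SGC. Its change of -7.49 ± 0.46 (adjusted p = 6.61e-06) is a 179.9-fold fall. Isg15, a ubiquitin-like protein, went from 539.6 and 625 to 4.05 and 5.01 (change -7.00 ± 0.40, adjusted p = 3.87e-06). Oas1a, which makes the second messenger that activates RNase L, went from 77.8 and 84.5 to 4.38 and 4.09 (change -4.26 ± 0.13, adjusted p = 4.12e-08). Bst2, or tetherin, kept a higher level: it read 679 and 754 in MEF_fl and 89.2 and 87.2 in Day4_fl_SGC (change -3.02 ± 0.10, adjusted p = 4.12e-08). The GTPases Igtp and Iigp1, which act on intracellular parasites, changed by -4.39 and -6.50, and Usp18, which removes ISG15 from proteins, by -6.36 (adjusted p = 2.72e-08, 4.09e-06 and 4.12e-08). Ifitm1, a membrane protein also known from pluripotent cells, was the one that rose, from 7.59 and 4.37 to 262 and 231 (change 5.36 ± 0.30, adjusted p = 2.48e-06). Its relative Ifitm3 read 819 and 791 in MEF_fl and 698 and 709.8 in Day4_fl_SGC and was not called (adjusted p = 0.0958).

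**Figure D4:**
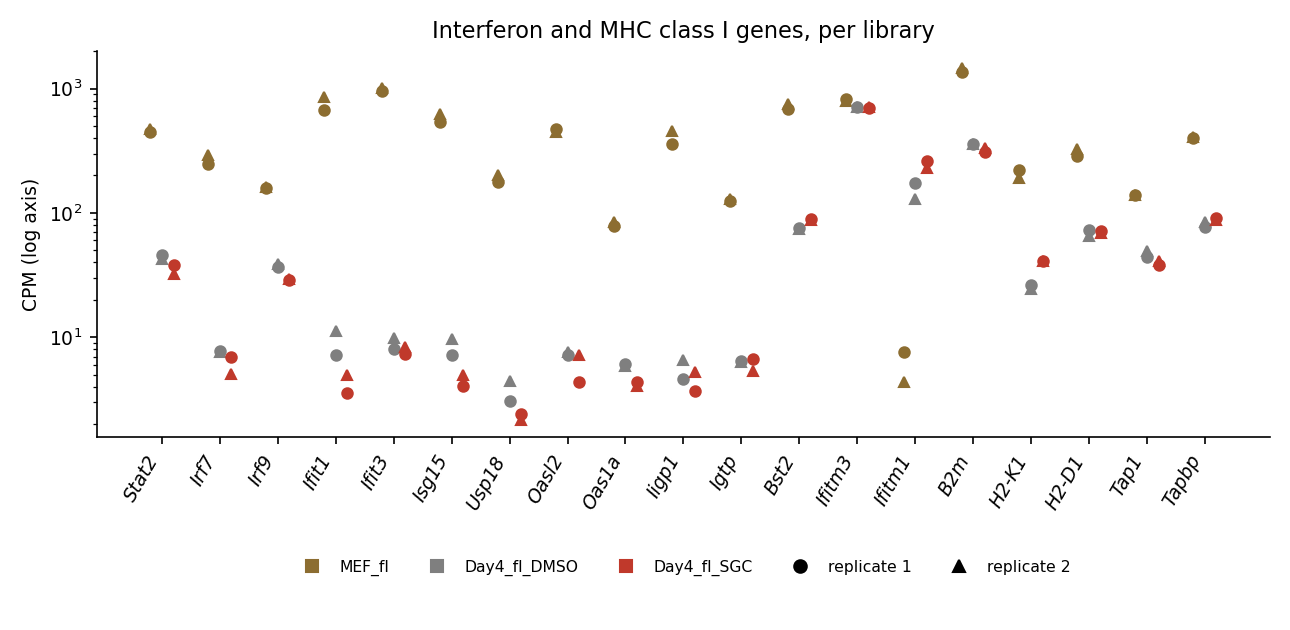
CPM on a log axis of 19 interferon and MHC class I genes in the 6 libraries, by group (colour) and replicate (shape). For every gene but Ifitm3 and Ifitm1 both MEF_fl libraries lie above the 4 day 4 libraries, and Ifitm1 is in the reverse order.

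Several genes that carry the signal fell too. Of 18 interferon sensing genes and transcription factors 17 were tested, 7 fell and 4 rose. The rises were near the 26.2% of all genes tested that were called higher. Stat2 went from 446 and 469 to 37.9 and 32.5 (change -3.70 ± 0.10, adjusted p = 1.82e-08). Irf9 changed by -2.46 and Irf7, which amplifies interferon production, by -5.48 (adjusted p = 6.67e-08 and 5.63e-07). Upstream of these, the receptor chain Ifnar1 and the kinase Jak1 were not called (changes -0.17 ± 0.08 and -0.06 ± 0.08, adjusted p = 0.111 and 0.53). With a replicate block Ifnar1, chosen after its values were seen, had an adjusted p of 0.0459. The adaptors Mavs and Tmem173 (STING) rose by 0.94 and 1.92 (adjusted p = 7.47e-05 and 0.000169). Of 12 MHC class I and antigen-processing genes 11 were tested and all 11 of those fell, with a median of -2.13. In Day4_fl_DMSO against MEF_fl all 11 fell as well, with a median of -2.16. B2m, the light chain of class I molecules, went from 1368 and 1453 to 311 and 334 (change -2.13 ± 0.09, adjusted p = 1.98e-07). The heavy chain H2-K1 read 220.3 and 192 in MEF_fl, 26.5 and 24.4 in Day4_fl_DMSO and 41.3 and 41 in Day4_fl_SGC (change from MEF_fl -2.33 ± 0.14, adjusted p = 1.54e-06). All 3 groups had received the empty virus. The time from infection to the harvest of MEF_fl is not given in the sources used here, and the part of the virus in these falls was not tested.

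Secreted inflammatory proteins did not move as 1 group. Of 28 genes 14 rose and 6 fell, with a median of 1.57. The filter on low counts shaped these counts too. Of the 28, 5 had under 10 counts in each MEF_fl library, and 4 of those were called. In each Day4_fl_SGC library 1 gene was as low, and it was called. Such genes were tested because other libraries held more counts, and Lcn2 is one that was low in MEF_fl. Lcn2, an iron-carrying acute phase protein, read 0.0593 and 0.303 in MEF_fl, 4.71 and 5.78 in Day4_fl_DMSO and 14.4 and 16.9 in Day4_fl_SGC (change from MEF_fl 6.39 ± 0.37, adjusted p = 1.16e-06). Its 3 groups did not overlap. The matrix metalloproteinase Mmp3 and the neutrophil chemokines Cxcl1 and Cxcl5 rose by 3.46, 1.95 and 1.49 (adjusted p = 7.69e-05, 9.71e-05 and 0.000101). The chemokines Ccl5 and Cxcl10, both also induced by interferon, changed by -5.21 and -4.26 (adjusted p = 0.000152 and 6.16e-05). Of 18 immediate early and AP-1 genes 5 fell, a share near the 26.1% of all genes called lower, and 1 rose. The falls numbered 3 without Day4_fl_SGC replicate 1 or MEF_fl replicate 1, and the rises 3 with a replicate block. Jun went from 483 and 482 to 80.8 and 89.7 (change -2.50 ± 0.13, adjusted p = 6.95e-07).

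Genes of growth and division rose. Of 28 genes of G2 and mitosis 27 were tested, 26 rose and none fell, with a median of 1.00. In Day4_fl_DMSO against MEF_fl 26 of them rose as well, with a median of 1.07. Many such genes hold the cell cycle genes homology region, the letters TTTGAA, near their start, where the repressive DREAM complex binds. On either strand these letters occurred in the promoter of 16 of 22 genes of the group with a RefSeq promoter (72.7%) and in 5466 of all 27025 (20.2%). For 3 genes of the group the letters are shown in capitals in 60 bases on the gene's strand.
Mki67: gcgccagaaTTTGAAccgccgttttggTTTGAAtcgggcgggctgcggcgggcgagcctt
Cdc20: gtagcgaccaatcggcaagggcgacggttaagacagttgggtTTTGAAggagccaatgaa
Cdk1: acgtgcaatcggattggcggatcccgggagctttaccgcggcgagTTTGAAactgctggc
They lie, in this order, at chr7:135716445-135716504 (minus strand), chr4:118437344-118437403 (minus strand) and chr10:69352913-69352972 (minus strand) of GRCm38.p6. Mki67, the proliferation marker Ki-67, went from 146 and 137 to 365 and 376 (change 1.39 ± 0.12, adjusted p = 1.23e-05). Cdc20, an activator of the anaphase-promoting complex, rose by 1.47 and the mitotic kinase Cdk1 by 0.78 (adjusted p = 3.72e-05 and 4.81e-05); both were chosen after their values were seen. Of 29 genes of G1/S and DNA replication 28 were tested. In Day4_fl_DMSO against MEF_fl 24 rose and 1 fell, with a median of 0.88. In Day4_fl_SGC against MEF_fl 23 rose and 2 fell, with a median of 0.67. With any 1 of the 4 libraries left out, only 1 fall was called. The site of the E2F factors, TTTC followed directly by CCGC, was searched in the same way. It occurred in a promoter of 4 of 23 genes of this group (17.4%) and of 334 of all 27025 genes (1.24%). Tk1, thymidine kinase, and Mcm7, a subunit of the replicative helicase, rose by 1.49 and 1.13 (adjusted p = 1.51e-05 and 4.98e-06). Cdkn1a, the p21 inhibitor of cyclin-dependent kinases, read 351 and 394 in MEF_fl and 370.2 and 379 in Day4_fl_SGC and was not called (change 0.01 ± 0.09, adjusted p = 0.957).

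Of 28 cytosolic ribosomal proteins 27 rose and none was called lower, with a median of 1.01. In Day4_fl_DMSO against MEF_fl 26 rose, with a median of 0.95. The gene not called, Rps27, had 586 counts over both MEF_fl libraries and none in Day4_fl_SGC. That is at least 179-fold lower against a floor of 3 counts over the group, and DESeq2 called 1 gene of the list lower. The list took 4.8 and 4.77 percent of TPM in MEF_fl and 9.01 and 8.68 percent in Day4_fl_SGC. Of 20 genes of ribosome biogenesis 17 rose and none fell (1 fell without MEF_fl replicate 2), with a median of 0.77. In Day4_fl_DMSO against MEF_fl 18 of these 20 rose, with a median of 0.79. Npm1, nucleophosmin, went from 636 and 559.9 in MEF_fl to 1667 and 1710.3 in Day4_fl_SGC (change 1.5 ± 0.13, adjusted p = 1.23e-05). Fbl, the methyltransferase fibrillarin, rose by 1.25 (adjusted p = 4.83e-05). RSEM divides reads among near-identical copies, of which ribosomal protein genes have many, so single values in this group are uncertain.

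Energy and lipid metabolism moved in opposite directions. Of 22 genes of glycolysis and the hypoxia response 21 were tested. In Day4_fl_DMSO against MEF_fl 15 rose and 2 fell, with a median of 0.63. In Day4_fl_SGC against MEF_fl 18 rose and 2 fell, with a median of 0.77. Slc2a3, a high-affinity glucose transporter, went from 7.41 and 5.58 to 45.6 and 45.9 (change 2.81 ± 0.21, adjusted p = 5.74e-06). Hk2, hexokinase 2, rose by 1.83 and Gpi1, the next enzyme of the pathway, by 1.26 (adjusted p = 1.79e-05 and 1.17e-05). The falls were Car9 and Vegfa, a carbonic anhydrase and a growth factor that hypoxia induces, with changes of -2.44 and -0.57 (adjusted p = 7.82e-05 and 0.000312). Of 24 respiratory chain genes 16 rose and 1 fell, with a smaller median of 0.35; the fall was not called without Day4_fl_SGC replicate 2 or either MEF_fl replicate.

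Of 27 lipid genes, which make cholesterol or fatty acids, 26 were tested, 25 fell and none rose, with a median of -1.20. In Day4_fl_DMSO against MEF_fl 25 fell as well, with a median of -1.16. The sterol regulatory element was searched as ATCAC, any 1 base and CCA on both strands. It occurred in a promoter of 1 of 17 genes of the group (5.88%) and of 268 of all 27025 genes (0.992%). Fasn, fatty acid synthase, went from 451 and 398 to 222 and 206 (change -0.99 ± 0.09, adjusted p = 2.11e-05). Acly, which supplies its substrate acetyl-CoA, changed by -1.14 (adjusted p = 0.000489). The one tested member not called was Scd1, a fatty acid desaturase, at 283 and 206 in MEF_fl and 197 and 196 in Day4_fl_SGC. Medium differed between the groups, and its part in these falls cannot be told apart from that of reprogramming. Of 22 genes of the unfolded protein and stress response 16 fell in Day4_fl_DMSO against MEF_fl, with a median of -0.89. In Day4_fl_SGC against MEF_fl 16 fell and 1 rose, with a median of -0.75. That rise was not called without MEF_fl replicate 2 or either Day4_fl_SGC replicate. Pdia4, a protein disulfide isomerase, and Calr, the chaperone calreticulin, changed by -1.30 and -0.96 (adjusted p = 2.65e-06 and 5.94e-05).

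The genes of the drug target and of AF10 differed little between the groups. Dot1l read 56.6 and 53.5 in MEF_fl and 71.3 and 58.3 in Day4_fl_SGC and was not called (change 0.24 ± 0.12, adjusted p = 0.126), but the fit with a replicate block called it (adjusted p = 0.0293). Mllt10, the gene of AF10, read 43.1 and 45.4 and 54.1 and 55.7, a change of 0.31 ± 0.08 (adjusted p = 0.0102). That call was lost without Day4_fl_SGC replicate 2 (or MEF_fl replicate 1), where the adjusted p reached 0.0648. Mllt3, the gene of the DOT1L partner AF9, rose from 24.4 and 36.1 to 94.3 and 99 (change 1.68 ± 0.20, adjusted p = 0.000152). RNA levels do not measure the enzyme's inhibition, and no methylation of histone H3 was measured here. Of 24 Polycomb and DNA methylation genes 23 were tested, 11 rose and 5 fell. The falls were near the 26.1% of all genes tested that were called lower, while 26.2% were called higher. The falls numbered 3 without Day4_fl_SGC replicate 1 and 2 without MEF_fl replicate 2. Cbx7, a chromobox subunit of Polycomb repressive complex 1, went from 4.21 and 3.16 to 32.6 and 25.2 (change 2.97 ± 0.21, adjusted p = 3.52e-06). Uhrf1, a partner of the maintenance DNA methyltransferase, rose by 1.26, while the Polycomb ring finger gene Bmi1 changed by -0.67 (adjusted p = 6.32e-06 and 0.00257).

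Markers of other cell types were read in the same libraries. Summed levels here are CPM without the TMM factors, which the values of single genes include. For comparison, 26.2% of all genes tested were called higher and 26.1% lower. Of 17 macrophage and blood cell genes 12 were tested, 4 rose and none fell; 6 of those tested had under 10 counts in each MEF_fl library. Their summed level was 12.9 and 5.89 CPM in MEF_fl, 70.7 and 81.1 in Day4_fl_DMSO and 66 and 82.4 in Day4_fl_SGC. Most of this was Laptm5, a lysosomal protein of blood cells, at 42.9 and 57.5 in Day4_fl_SGC, while Ptprc, the pan-leukocyte antigen CD45, and Aif1 had at most 11 counts in any of the 6 libraries. Ptprc and Aif1 were chosen after their values were seen. The summed level of 20 cartilage and bone genes was 1121 and 1555 in MEF_fl and 2808 and 3505 in Day4_fl_SGC, higher on day 4 as the epithelial genes were. Most of that was Spp1, osteopontin, which read 274 and 426 in MEF_fl, 1201 and 1511 in Day4_fl_DMSO and 2379 and 3046 in Day4_fl_SGC (change from MEF_fl 2.95 ± 0.27, adjusted p = 3.33e-05). Of the 17 tested in that list 8 fell and 4 rose. Among the 17, 4 had under 10 counts in each Day4_fl_SGC library and 1 in each MEF_fl library. All of these were called, and they were tested because other libraries held more counts. Without Day4_fl_SGC replicate 1 or 2 the falls numbered 5, and without Day4_fl_SGC replicate 2 or MEF_fl replicate 1 the rises numbered 2. Of 10 endothelial genes 4 were tested, 1 rose and 1 fell (2 with a replicate block). Their summed level was 55.8 and 62.7 CPM in MEF_fl, 134 and 162 in Day4_fl_DMSO and 121 and 171 in Day4_fl_SGC. Most of the day 4 level was Tek, an angiopoietin receptor, which rose by 2.74 (adjusted p = 4.34e-05), while Kdr, a VEGF receptor, changed by -2.34 (adjusted p = 0.00173). Skeletal and cardiac muscle genes summed to 27.5 and 18.1 in MEF_fl and 7.86 and 7.88 in Day4_fl_SGC. Of 9 tested 6 fell and 1 rose, and fewer falls were called whichever of the 4 libraries was left out. Of the 9, 4 had under 10 counts in each Day4_fl_SGC library, of which 3 were called. In each MEF_fl library 2 were as low, of which 1 was called. These genes were tested because other libraries held more counts. Of 12 neural and glial genes tested 6 fell (fewer without Day4_fl_SGC replicate 2) and 1 rose (2 with a replicate block). Their unadjusted summed level was 292 and 219 in MEF_fl and 223 and 224 in Day4_fl_SGC. With the TMM factors the MEF_fl sums would be higher and the Day4_fl_SGC sums lower. Of 7 adipocyte genes tested 1 rose and 1 fell, of 5 extraembryonic and endoderm genes 3 fell and none rose, and of 3 germline genes 1 rose. The adipocyte fall was not called without Day4_fl_SGC replicate 1 or 2, 3 fell with a replicate block, and the germline rise was not called without Day4_fl_SGC replicate 1 or MEF_fl replicate 2. The part of these cell types in the results was not tested.

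What the inhibitor added to reprogramming was read from Day4_fl_SGC against Day4_fl_DMSO. Here 123 genes (0.883%) were called higher in the inhibitor and 32 (0.23%) lower. These calls rest on both replicates of each group: with any 1 of the 4 libraries left out 1 to 5 genes were higher and none lower, while at an unadjusted p under 0.05 the same fits gave 717 to 846 higher and 435 to 670 lower. The fit with a replicate block for each stage, which compares libraries of the same replicate number and is called paired here, gave 1480 higher (10.6%) and 990 lower (7.1%). With each library left out in turn the paired fit gave 826 to 986 higher and 410 to 609 lower. Apart from Pou5f1, the genes named next as higher or lower in the paired fit kept that call in each of those fits.

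In the paired fit more epithelial genes were called higher than lower in the inhibitor against DMSO, and more limb factors lower than higher. Matrix and contractile genes also had more calls higher than lower, but those counts are not read as a result about the group. Over all genes tested the paired fit called 10.6% higher and 7.1% lower. The filter on low counts bears on these counts too: a gene low in Day4_fl_DMSO was tested if other libraries held enough counts. How many such genes the lists held was not examined. Of 19 epithelial adhesion genes tested 12 were higher in Day4_fl_SGC and 1 lower, against 3 and 0 in the first fit. Of 15 desmosome and keratin genes 10 were higher and none lower, against 1 and 0. With each of the 4 libraries left out in turn the paired counts of higher genes were 8 to 9 and 5 to 8. Cdh1 was higher by 1.43 ± 0.11 on the log2 scale (SE, paired adjusted p = 1.36e-09), which the first fit did not call (adjusted p = 0.0741). Epcam was higher by 2.50 ± 0.33 (paired adjusted p = 3.42e-06). On the other side, 13 limb and mesenchyme factors were lower and 2 higher of 27 tested in the paired fit, and 8 to 9 lower and 1 higher with a library left out. The first fit called 3 lower and 0 higher. The differences were -1.31 ± 0.11 for Osr1, -0.86 ± 0.07 for Nfix and -2.45 ± 0.20 for Hoxd12 (paired adjusted p = 1.09e-09, 3.39e-09 and 1.09e-09). For Cdh1, Epcam, Osr1 and Nfix both Day4_fl_DMSO libraries lay between those of MEF_fl and those of Day4_fl_SGC.

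Other mesenchymal groups gave mixed counts. Over all genes tested the paired fit called 10.6% higher and 7.1% lower. Counts of a few genes in lists this small are not read as a result about the group. In the paired fit 13 of 30 matrix genes were higher in the inhibitor and 7 lower, and 8 to 13 and 4 with a library left out. Of 17 collagens 3 were higher and 1 lower (2 lower without Day4_fl_SGC replicate 1), and of 20 contractile genes 4 were higher and 0 lower. With a library left out 1 to 3 contractile genes were higher, and 1 was lower without Day4_fl_SGC replicate 1. Of 20 genes of mesenchymal adhesion and its transcription factors 3 were lower and 1 higher, and with any of the 4 libraries left out 1 was lower and at most 1 higher. In the first fit these 4 groups together had 1 matrix gene called higher and 1 lower.

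Some genes stood apart from that pattern. Klf2, a Krüppel-like factor, fell from 79.7 and 87 in MEF_fl to 3.91 and 4.63 in Day4_fl_DMSO and 9.55 and 7.91 in Day4_fl_SGC, so that it was higher in the inhibitor than in DMSO (paired difference 1.02 ± 0.16, paired adjusted p = 5.36e-05). Igf2bp1, an oncofetal RNA-binding protein, read 36.7 and 40.4 in MEF_fl, 48.1 and 49.6 in Day4_fl_DMSO and 26 and 22.9 in Day4_fl_SGC (paired difference -1.0 ± 0.09, paired adjusted p = 5.13e-09). It was lower in the inhibitor than in either other group. Among inflammatory genes too, a gene low in Day4_fl_DMSO was tested if other libraries held enough counts. In the paired fit 18 of 28 inflammatory genes were higher in the inhibitor than in DMSO and none lower, against 1 and 0 in the first fit. Of 18 immediate early genes 9 were higher and none lower in the paired fit, against 1 and 0. With a library left out in turn the paired counts of higher genes were 10 to 14 and 7 to 8, and 1 immediate early gene was lower without Day4_fl_SGC replicate 1. Pou5f1, Sox2 and L1td1 showed no call in the first fit: the 95% interval of the difference on the log2 scale ran from -0.73 to 0.05 for Pou5f1, from -0.53 to 0.30 for Sox2 and from -0.12 to 0.43 for L1td1. The paired fit called Pou5f1 lower (paired adjusted p = 0.00715), but not without Day4_fl_DMSO replicate 2 or Day4_fl_SGC replicate 2. Among the strongest calls, the glycogen phosphorylase Pygl and the aldehyde oxidase Aox3 were higher in the inhibitor by 1.30 ± 0.12 and 1.72 ± 0.09 (paired adjusted p = 4.79e-09 and 3.36e-13).

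**Figure D5:**
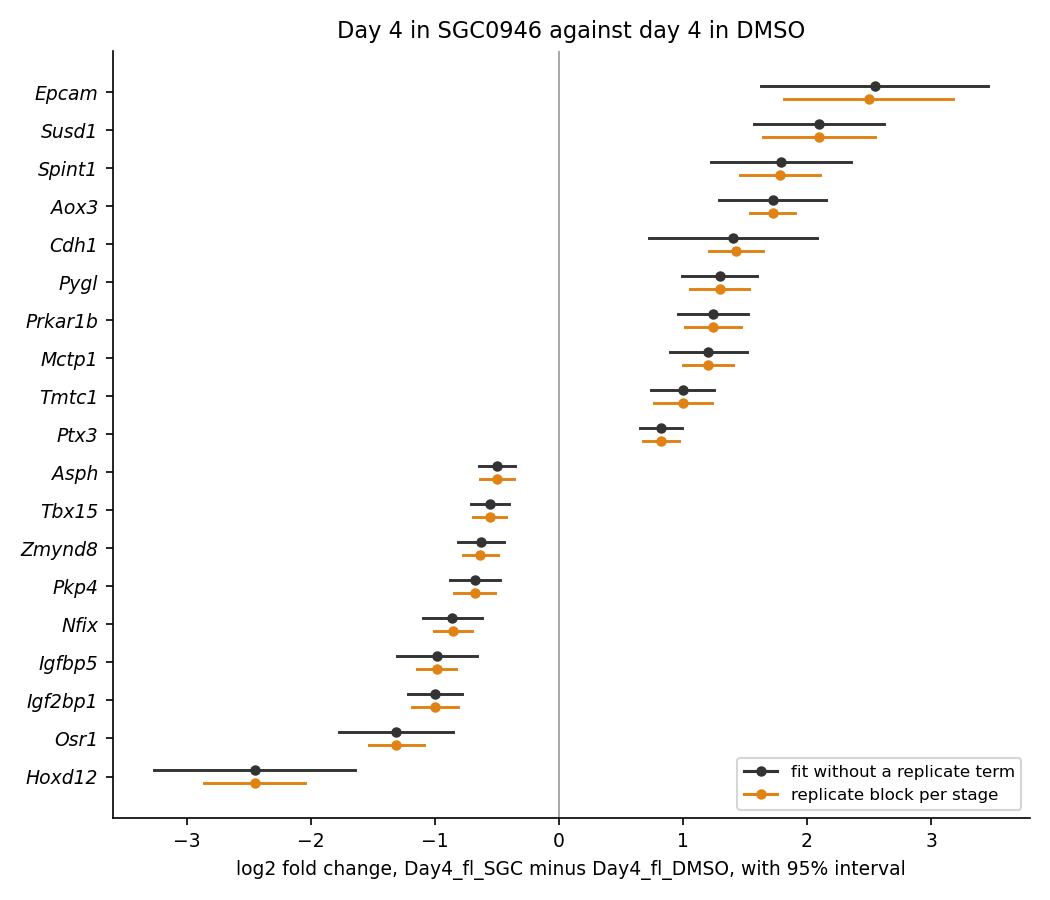
Log2 difference of Day4_fl_SGC over Day4_fl_DMSO with its 95% interval for 19 genes, from the fit without a replicate term (dark) and with a replicate block per stage (orange). Epcam and Cdh1 lie right of 0 and Osr1, Nfix and Hoxd12 left of 0 in both fits, and the orange intervals are mostly the narrower ones.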

How the data were processed

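Per the labels' protocols, TruSeq libraries of polyadenylated RNA were made for 12 samples (6 groups of 2). The submitters' processing notes name Bowtie, RSEM and build mm9. Per the file headers, each deposited table lists 20325 genes with their expected counts, TPM and FPKM. RSEM splits a read that fits several genes. TPM served only for shares of a library, and FPKM was not used. In 10 files 25 gene names had become dates, so rows were joined by transcript identifiers.

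Expected counts were rounded and filtered with filterByExpr, which kept 13936 genes. Tests used edgeR 4.0.16 in R 4.3.3: TMM scaling, 1 fit over 12 libraries and 6 groups, the robust quasi-likelihood F test and Benjamini-Hochberg adjustment. The fit was also run on simulated counts, with an outcome that is not reported here. Simulated libraries were drawn independently, without the replicate pairing of these data. Libraries held 14602536 to 22800753 counts, and intervals on raw counts cover counting error only.

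The replicate numbers pair the libraries: deviations of same-numbered libraries correlated at 0.286 to 0.737 across genes over 15 pairs of groups, and Y-linked genes were high in every replicate 1 and near 0 in every replicate 2. The labels do not name the sources. DESeq2 1.42.0, a replicate block and the settings given at the end were alternatives. Members and 46 gene lists were chosen with earlier results of these data known. Named genes are, by rule, the 12 largest rises and falls at 10 CPM or more, list members with the lowest p or highest level, the strongest calls against DMSO, the markers, and the genes of the target and factors; others are marked where named. A few genes of the rule are not reported here. Promoters are RefSeq sequences of GRCm38.p6.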

Additional observations from a re-analysis of the deposited data

How the results depend on the processing

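For Day4_fl_SGC against MEF_fl the counts of 3645 higher and 3634 lower moved by less than 1.5 times under every setting tried: DESeq2 or its size factors, no filter on low counts, unrounded counts, a replicate block, only the 4 libraries, and each library left out. With the replicate block on 12 libraries they were 4124 and 4163, and with a library left out 2844 to 3065 and 2748 to 3189. Day4_fl_SGC against Day4_fl_DMSO (123 higher, 32 lower) depended on the setting. DESeq2 gave 221 and 85, the 4 libraries alone 264 and 69, a replicate block 559 and 247, the block per stage 1480 and 990, and the block on the 4 libraries alone 1543 and 924. With a library left out, without a block, 1 to 5 were higher and 0 lower by edgeR (717 to 846 and 435 to 670 at an unadjusted p under 0.05); the lone library left in a group is then assumed to vary like the other groups. With the block per stage, an alternative chosen for the left-out libraries after seeing the data, they were 916 and 594 (without Day4_fl_DMSO replicate 1), 826 and 410 (without its replicate 2), 930 and 609 (without Day4_fl_SGC replicate 1) and 986 and 537 (without its replicate 2). Of values recomputed for named genes against MEF_fl, 3223 kept side and direction, 170 lost the call, 2 gained it and 2 reversed: without MEF_fl replicate 1, Klf4 at 0.071 and Thy1 at 0.99, against -0.261 and -1.01 without replicate 2. Against Day4_fl_DMSO 553 kept it, 135 lost it, 29 gained it and 3 reversed. These were Nfic without Day4_fl_SGC replicate 2, at 0.0677 (-0.222 without replicate 1) and with the block per stage at 0.0429, and Sox2 with that block and without Day4_fl_DMSO replicate 1, at 0.0155. Of list counts, 101 of 1012 against MEF_fl moved by over 1.5 times and 488 of 1472 against Day4_fl_DMSO. The cause was not tested. With 2 libraries a group, small changes and genes of a few counts per library could not be resolved.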

Other observations

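Genes of growth factor signalling were mostly lower in Day4_fl_SGC than in MEF_fl. Of 22 tested 13 fell and 2 rose. Igf2, the fetal insulin-like growth factor, read 7012 and 7778 CPM in MEF_fl, 796 and 1118 in Day4_fl_DMSO and 537 and 861 in Day4_fl_SGC, a change from MEF_fl of -3.40 ± 0.33 (SE, edgeR adjusted p = 5.87e-05). Igf1 changed by -2.31 and their receptor Igf1r rose by 0.83 (adjusted p = 1.91e-05 and 2.88e-05). The receptors Pdgfrb and Egfr, which carry growth signals into fibroblasts, changed by -0.81 and -1.10 (adjusted p = 0.000215 and 2.11e-05). Spry4, a feedback inhibitor of the ERK pathway, rose by 2.32 (adjusted p = 0.000819). Its relative Spry2 read 71.1 and 77.9 in MEF_fl, 79.6 and 89.7 in Day4_fl_DMSO and 54.3 and 55.5 in Day4_fl_SGC, and changed by -0.44 (adjusted p = 0.00341).

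Of 28 TGF-beta, BMP and WNT genes 15 fell and 2 rose, and 1 rose without Day4_fl_SGC replicate 1 or MEF_fl replicate 1, while 4 rose with a replicate block. Tgfb2, a TGF-beta ligand, and Tgfbr2, its receptor chain, changed by -2.29 and -1.29 (adjusted p = 6.62e-06 and 4.84e-05). Wnt5a, a ligand of limb mesenchyme, went from 141 and 180.0 to 55.5 and 56.5 (change -1.52 ± 0.12, adjusted p = 6.46e-06). Lef1, a transcription factor through which WNT acts, rose from 0.771 and 0.91 to 6.47 and 7.58, with 2.99 and 2.89 in Day4_fl_DMSO (change from MEF_fl 3.05 ± 0.34, adjusted p = 6.18e-05). Of 16 oncofetal and imprinted growth genes 13 were tested, 7 fell and 2 rose. The imprinted genes Peg3 and Mest changed by -1.37 and -1.0, and the chromatin protein gene Hmga1 rose by 1.44 (adjusted p = 4.95e-06, 3.17e-05 and 0.00135). Over all genes tested 26.1% were called lower and 26.2% higher. Of 10 genes of the super elongation complex 4 fell and 3 rose, too few genes to set apart from those shares. Its scaffolds Aff1 and Aff4 changed by -0.57 and -0.59, and Cdk9, its kinase, rose by 0.50 (adjusted p = 0.000233, 0.000173 and 0.000591).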
